A study of Mus musculus with 12 samples.

Results

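The interferon-induced GTPases are gene families named for members that cells switch on when interferon reaches them. Described here are 10 genes of these families, of 55536 genes in each of the deposited tables, found by their gene symbols: Irgc1, Irgm1, Irgm2, Igtp and Iigp1 of the immunity-related GTPases (IRG), Gbp2, Gbp3, Gbp6 and Gbp7 of the guanylate-binding proteins (GBP), and Gvin1 of the very large inducible GTPases (GVIN). Irgc1 belongs by family but is not known to be induced by interferon. Irgc1 and Gvin1 were chosen by their normalized counts in these same libraries, in both comparisons made here, so their differences between groups are given as a description and carry no test. The other 8 were taken from the same families with results of these data already known.

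RNA sequencing was performed on the stromal vascular fraction (SVF), the mix of non-adipocyte cells freed from fat, of inguinal white adipose tissue (iWAT) from male mice kept at room temperature. The mice formed 3 groups of 4: 12-month-old Pdgfrβ-KO mice, 12-month-old controls and 2-month-old controls, all of a mixed C57BL6/J and 129SV background. How these strains were shared between the groups at any gene is not given. Strain differences between groups therefore cannot be told apart from KO or age, and were not tested. Pdgfrβ-KO mice carried Sma-CreERT2, which is driven by the smooth muscle actin promoter, with a Rosa26 reporter and Pdgfrβ fl/fl alleles, and received tamoxifen (TMX). The deletion is therefore limited to cells that express Sma, whereas the SVF holds every stromal, vascular and immune cell of the depot. The study calls the 12-month controls of this comparison Sma-Control, a model that carries Sma-CreERT2 and the reporter without floxed Pdgfrβ, whereas GEO's labels give the controls as wild type and name the tissue only as adipose. Whether the sequenced controls received TMX, and whether the 2-month controls carried the driver, is not given in the sources used here. KO was set against the 12-month controls, and the 12-month controls against the 2-month controls, so both comparisons share the 12-month libraries.

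Normalized counts summed to between 19616978 and 21872836 in the 12 libraries. Pdgfrb, the deleted gene, had 1882, 2145, 1707 and 1749 normalized counts in Pdgfrβ-KO SVF, against 3000, 4380, 3258 and 2399 in 12-month control SVF, with no overlap. Macrophage markers summed to 58842 to 101700 in KO, 29605 to 42428 in 12-month control and 14694 to 21479 in 2-month control libraries, without overlap. Sums of 5 endothelial markers were 23943 to 31879, 30084 to 44731 and 41668 to 56233 in the same order of groups, and neighbouring groups overlapped. Of these 5 genes 1 was lower in KO, Tek (log2 fold change -0.48, limma, adjusted p = 0.0433), and 1 with age, Kdr (-0.44, 0.0390). Mural cell markers summed over 5 genes to 17956 to 20965 in KO, 22072 to 39240 in 12-month control and 34878 to 39972 in 2-month control libraries, with KO below all controls. Gene by gene, 0 of the 5 passed in KO. With age 4 were lower, while Rgs5 was higher (log2 fold change 0.74, limma, adjusted p = 0.0199). The sums of T and NK cell markers overlapped between all groups, at 9288 to 12397, 8288 to 14566 and 10810 to 13521 in the same order of groups. Single genes of that list differed with age. Klrb1c (log2 fold change 2.01, limma, adjusted p = 0.000368), Ncr1 (0.92, 0.0359) and Nkg7 (0.50, 0.0280) were higher at 12 months and Cd4 (-0.80, 0.00805) lower. The other 8 of the 12 did not pass, and in KO 0 passed. Of all tested genes 11.3% were higher and 11.4% lower with age, and 4.96% were higher and 4.46% lower in KO. All of these are bulk values, in which fewer cells of a type and less RNA per cell cannot be told apart, and the part that cell composition has in any difference below was not tested.

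Interferon gamma binds its receptor, Ifngr1 with Ifngr2, and acts through the kinases Jak1 and Jak2 on target genes that hold GAS elements, among them the gene of the transcription factor Irf1. Irf1, like the factors downstream of type I interferon, acts on the GTPase genes through interferon-stimulated response elements (ISRE). In mouse cells the IRG and GBP proteins gather on the vacuoles of intracellular parasites and bacteria and break them open. Irgm1, Irgm2 and Igtp (Irgm3) are the regulators, which sit on the cell's own membranes and hold effectors such as Iigp1 (Irga6) in check, and GBPs act together with the effectors. The GVIN proteins are giant GTPases of little-known function, and Irgc1, the IRG cinema protein, is an outlier of the family that is known from mouse testis and is not known to be induced by interferon.

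Irgc1 was high in Pdgfrβ-KO SVF and near the floor in both control groups. It lies on chromosome 7 at chr7:24431922-24452297 on the minus strand (GRCm38, GENCODE vM21) and has 2804 exonic bases. Normalized counts were 335, 303, 303 and 373 in the 4 KO libraries, 17, 9, 16 and 18 in 12-month control libraries and 11, 6, 4 and 3 in 2-month control libraries. Every KO library lay above every control library, while the control ages overlapped. Irgc1 averaged 328.5 ± 33.3 in KO and 15.0 ± 4.08 in 12-month control SVF (SD, n = 4 each), a log2 fold change of 4.40 ± 0.23 (SE). The 12-month over 2-month difference was 1.28 ± 0.41 on the log2 scale, with 6.0 ± 3.56 in 2-month controls (SD, n = 4). Genes of male germ cells, the usual site of Irgc1, summed over 8 markers to 4 to 13 in KO, 6 to 8 in 12-month control and 6 to 7 in 2-month control libraries, with Prm1 at 0 in all 12.

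Gvin1 showed another pattern, with almost no reads in young mice. The gene lies on the same chromosome, 81.7 Mb from Irgc1, at chr7:106156556-106215326 on the minus strand with 9005 exonic bases. It had 30, 75, 99 and 112 normalized counts in KO, 212, 156, 445 and 203 in 12-month control and 3, 1, 0 and 2 in 2-month control SVF. The 3 groups did not overlap, with 12-month controls highest, KO between and 2-month controls lowest. Means were 79.0 ± 36.1 in KO, 254.0 ± 130 in 12-month controls and 1.5 ± 1.29 in 2-month controls (SD, n = 4 each). The log2 fold change was -1.71 ± 0.41 for KO over 12-month control and 6.73 ± 0.44 for 12 over 2 months (SE). The size of the age difference depends on the 1 added before the logarithm, since it rests on 3 or fewer normalized counts in each young library, and Gvin1 entered that comparison only through its 12-month libraries. The strain origin of this stretch in each mouse is not given. Age and a strain difference between the groups cannot be told apart for Gvin1, and neither was tested.

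**Figure D1:**
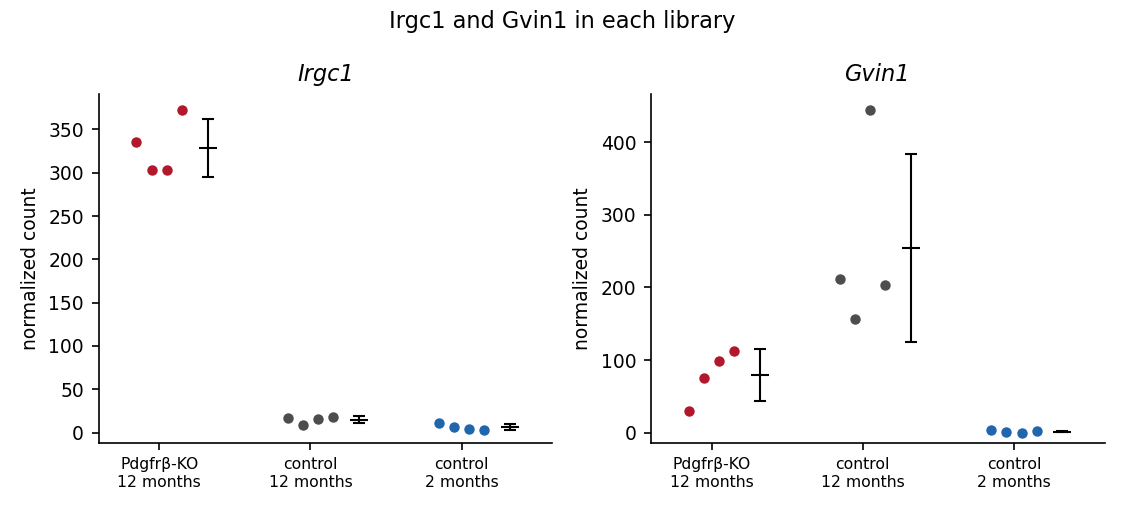
Normalized counts of Irgc1 and Gvin1 in each of the 12 libraries (points), with the mean and SD of each group beside them (bars, n = 4). All 4 Pdgfrβ-KO libraries are at 303 or more for Irgc1 while no control library exceeds 18, and Gvin1 is at 3 or less in 2-month controls, at 30 to 112 in KO and at 156 to 445 in 12-month controls.

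The regulators Irgm1, Irgm2 and Igtp were expressed in all 12 libraries and differed far less. Igtp (chr11:58199556-58207591, plus strand) had 1292, 1356, 1273 and 1035 normalized counts in KO, against 1896, 1371, 2037 and 1769 in 12-month control SVF. The ranges did not meet, though the lowest control lay only just above the highest KO library, and Igtp was lower in KO by a log2 fold change of -0.50 ± 0.14 (SE, limma, adjusted p = 0.0451). This call was lost in 8 of 17 alternatives, 7 of them the fits without a KO library or without control replicate 1, 3 or 4, where the adjusted p lay between 0.0539 and 0.131. In 2-month controls Igtp had 2542, 1893, 2103 and 2003, which overlapped the 12-month controls (12 over 2 months -0.28, adjusted p = 0.139).

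Irgm1 (chr11:48861968-48871683, minus strand) had 540, 549, 562 and 515 normalized counts in KO and 725, 552, 1014 and 750 in 12-month control SVF. All controls but replicate 2 lay above every KO library, and replicate 2 fell within the KO range. The difference of -0.46 ± 0.16 did not pass (adjusted p = 0.0976), but it did without that library (-0.60, adjusted p = 0.0330). As replicate 2 was the lowest control, leaving it out had to widen the difference, and no fall is read from that fit. Young controls were at 930, 900, 846 and 780, above all KO libraries and overlapping the 12-month controls (-0.21, adjusted p = 0.322).

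Irgm2 (chr11:58199618-58222782, plus strand) had 582, 778, 791 and 771 in KO, 930, 699, 1380 and 888 in 12-month control and 870, 796, 885 and 914 in 2-month control SVF. Neither comparison passed, with log2 fold changes of -0.38 (95% confidence interval -0.80 to 0.03, adjusted p = 0.223) for KO and 0.13 (-0.23 to 0.48, adjusted p = 0.602) for age. Irgm2 and Igtp overlap on the same strand by 7974 bases and share 162 exonic bases, so that a small share of their reads cannot be assigned to one or the other.

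The promoters of the regulators are shown because the GTPases are textbook interferon targets and the sequence lets the elements be seen. RefSeq promoter entries (GRCm38.p6) of 6 of the 10 members were searched, in 7 windows. Irgc1, Gvin1 and Gbp6 had no entry. Iigp1 was left out of the search because of its chromosome, so its promoter was not examined. The 250 bases before the start were searched on both strands for an ISRE core and for a GAS. An ISRE core was found in all 6 genes and a GAS in 3 of them, while 2.98% of all 32851 promoters held an ISRE core and 7.02% a GAS. Capitals mark these matches in the promoters of Igtp (chr11:58199306-58199555, plus strand) and of Irgm2 (chr11:58214727-58214976, plus strand). The RefSeq start of Irgm2 lies inside the annotated gene:
Igtp: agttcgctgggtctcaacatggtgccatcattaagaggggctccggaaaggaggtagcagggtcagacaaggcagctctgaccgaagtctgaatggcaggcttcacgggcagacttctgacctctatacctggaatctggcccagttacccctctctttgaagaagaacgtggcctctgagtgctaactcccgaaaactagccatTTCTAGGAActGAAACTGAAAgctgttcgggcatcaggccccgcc
Irgm2: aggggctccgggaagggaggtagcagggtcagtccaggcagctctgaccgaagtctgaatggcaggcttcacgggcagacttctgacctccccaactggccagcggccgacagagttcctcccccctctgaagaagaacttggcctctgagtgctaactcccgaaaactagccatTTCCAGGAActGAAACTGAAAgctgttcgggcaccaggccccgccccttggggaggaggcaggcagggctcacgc
The 30 bases around the ISRE core, from 10 before to 10 after it, were identical in 29 positions between the 2 genes, and the GAS stood 2 bases before the core in both. Irgm1 held a pair of overlapping cores on its own strand, of which the window around the first (chr11:48871431-48871460) is given:
Irgm1: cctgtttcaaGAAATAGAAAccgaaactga
A match is a run of letters and not a measured binding site.

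Iigp1, the effector, had the largest fall among the 8 members other than Irgc1 and Gvin1. It lies on chromosome 18 at chr18:60376027-60392634 on the plus strand, 0.653 Mb from Pdgfrb, the gene that is floxed in KO mice. So near that gene, the deletion and a strain difference carried with the floxed allele cannot be told apart. Neither was tested. Normalized counts were 2334, 2909, 1940 and 1875 in KO, 4333, 4348, 5598 and 3975 in 12-month control and 6127, 5510, 5883 and 4485 in 2-month control SVF. All KO libraries lay below all control libraries of both ages. Iigp1 averaged 2265 ± 475 in KO and 4564 ± 711 in 12-month controls (SD, n = 4 each) and was lower in KO by -1.02 ± 0.16 (SE, limma, adjusted p = 0.00311), a call kept in each of 17 alternatives. The age difference did not pass (-0.27, adjusted p = 0.140), with 5501 ± 723 in young controls.

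Among the GBPs, which coat bacteria and pathogen vacuoles, Gbp6 was lower in Pdgfrβ-KO SVF, and Gbp2, Gbp3 and Gbp7 did not pass. Gbp6 (chr5:105270702-105293698, minus strand) had 116, 140, 171 and 137 normalized counts in KO, 262, 190, 350 and 256 in 12-month control and 399, 390, 339 and 259 in 2-month control SVF. KO libraries were below all controls of either age, and the ages overlapped. The log2 fold change was -0.88 ± 0.20 for KO (SE, adjusted p = 0.0186) and -0.40 for age (adjusted p = 0.136). The KO call missed the threshold without KO replicate 1, control replicate 1 or control replicate 3, at adjusted p of 0.0553, 0.0545 and 0.0556.

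Gbp7 (chr3:142530342-142550149, plus strand) had 643, 799, 967 and 1090 in KO, 1137, 806, 1757 and 1123 in 12-month control and 1462, 1485, 1476 and 1623 in 2-month control SVF. Gbp2 (chr3:142620602-142638008, plus strand) had 1590, 1831, 2031 and 1957 in KO, 1841, 2221, 3007 and 2067 in 12-month control and 3236, 2593, 2771 and 2898 in 2-month control SVF. Both overlapped between neighbouring groups, yet for each the KO libraries lay below all 2-month controls, a pair of groups that was not tested. Log2 fold changes for KO were -0.43 (95% confidence interval -0.93 to 0.06, adjusted p = 0.244) for Gbp7 and -0.28 (-0.62 to 0.05, adjusted p = 0.255) for Gbp2. For age they were -0.38 (adjusted p = 0.141) for Gbp7 and -0.35 (adjusted p = 0.0819) for Gbp2. Gbp3 (chr3:142560026-142573209, plus strand) had the smallest differences of the set. It had 1600, 1809, 1287 and 1597 in KO, 1536, 1294, 2062 and 1523 in 12-month control and 1957, 1490, 1488 and 1627 in 2-month control SVF, overlapping throughout (KO -0.02, 95% confidence interval -0.35 to 0.32, adjusted p = 0.957).

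The GBPs on chromosome 3 carried their ISRE cores on the strand opposite to the gene, all within 60 bases of the start. They are printed on that strand, with the core in capitals, for Gbp7 (chr3:142530273-142530302), Gbp3 (chr3:142559989-142560018) and Gbp2 (chr3:142620594-142620623), the last being given so that the member that differed least, Gbp3, can be set beside both its neighbours:
Gbp7: atggagaactGAAACTGAAActgcacacac
Gbp3: ctgggaaataGAAACTGAAActgtgtcctg
Gbp2: ttaagacagtGAAAGTGAAActaaaagagt
Gbp7 also held a GAS at 2 places, and Gbp3 held a second core that overlaps the one shown.

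**Figure D2:**
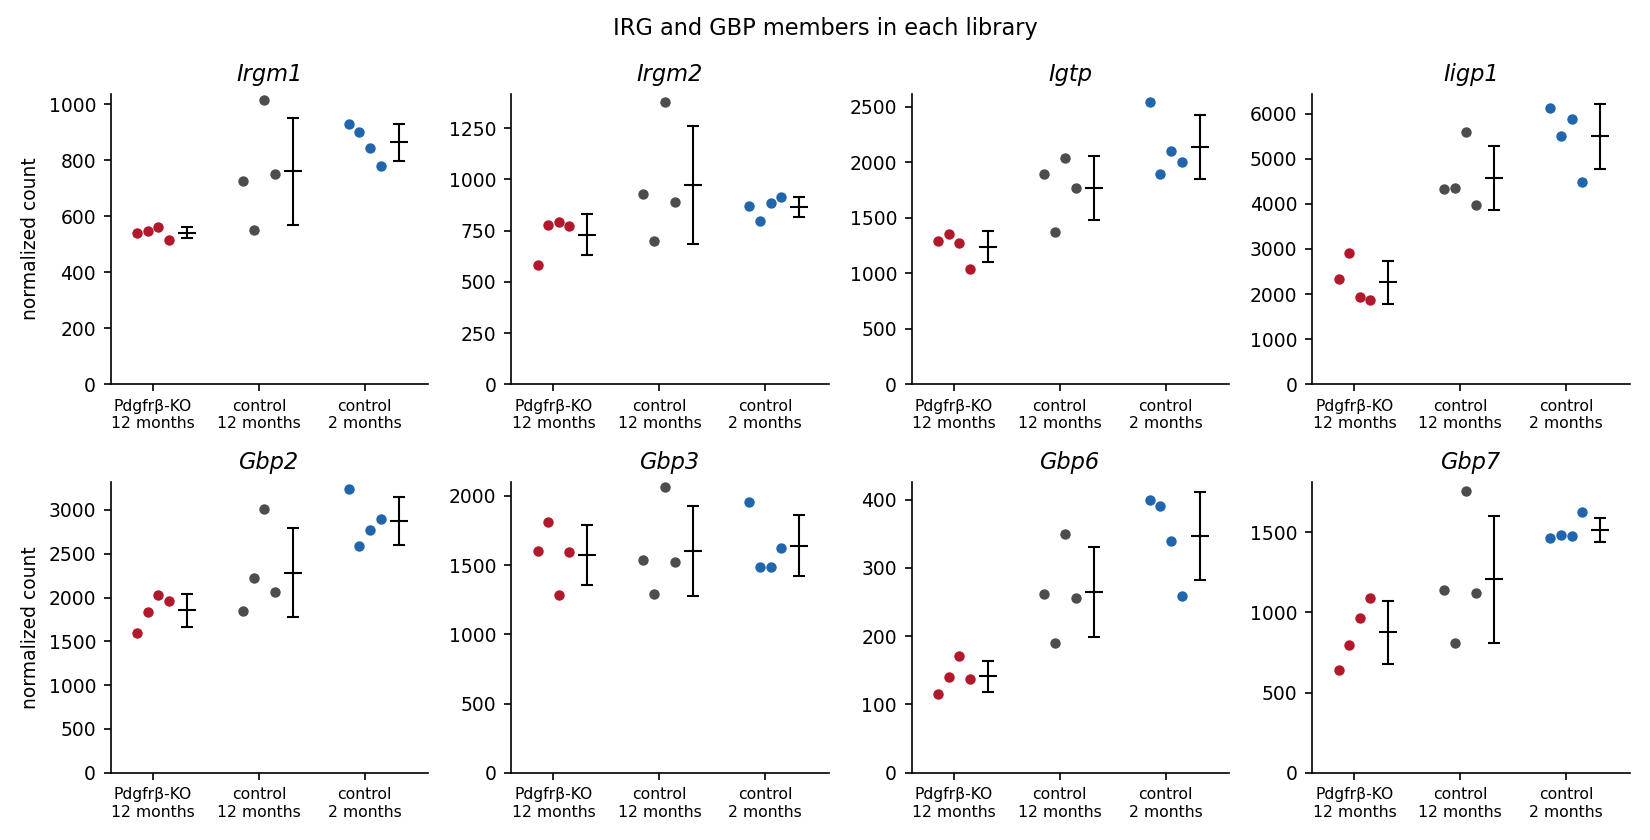
Normalized counts of the 8 IRG and GBP members in each library (points), with the mean and SD of each group (bars, n = 4), each axis from 0. The 4 Pdgfrβ-KO libraries lie below all 12-month controls for Igtp, Iigp1 and Gbp6, and the 12-month control group is the widest for most members.

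Irgc1 and Gvin1 are left out of the counts of calls, because their own values chose them. Of the other 8 members, 3 (Iigp1, Gbp6 and Igtp) were called lower in KO and 0 higher (4 and 0 at an unadjusted p under 0.05), while 9.42% of the 16344 tested genes were called in either direction, 4.96% higher and 4.46% lower. As a description of all 10, KO did not overlap 12-month control for 5, Irgc1 above and Iigp1, Gbp6, Igtp and Gvin1 below, where 17.1% of all tested genes did not overlap (9.05% higher and 8.06% lower). With age 0 of the 8 were called (1 lower, Gbp2, at an unadjusted p under 0.05), against 22.7% of 16399 tested genes, and of all 10 only Gvin1 did not overlap, against 24.8%. Nothing is read from these shares, because levels in these libraries entered the choice of members. All 10 passed the filter of 10 normalized counts in at least 4 of 8 libraries in both comparisons, Gvin1 in the age comparison through the 12-month group alone. KO and 2-month controls were not tested against each other. The share of all genes without overlap was not computed for that pair, so no count of members is given.

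Much of the spread of the 12-month controls was shared between members. Among the 8 IRG and GBP members, control replicate 3 was the highest of its group in 8 and replicate 2 the lowest in 6, with median deviations of 0.43 and -0.39 from the group mean on the log2 scale. Without replicate 3, 5 members were lower at 12 than at 2 months: Gbp7 (adjusted p = 0.00699), Gbp2 (0.00707), Iigp1 (0.0367), Gbp6 (0.0410) and Irgm1 (0.0464). With all 8 libraries none of these passed, and each gained a call in only 1 of 17 alternatives. Replicate 3 held the highest 12-month value of each, so leaving it out had to lower their 12-month means. No fall with age is read from that fit. In KO libraries the members did not share a highest or lowest library to this degree, with 4 of 8 at most.

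Levels between genes were compared per kb of exon. Gbp2 and Igtp had the highest means in all groups, at 736 and 613 normalized counts per kb in KO, 908 and 875 in 12-month control and 1142 and 1056 in 2-month control SVF, and the ranges of these 2 genes overlapped in every group. The order of the next genes was not clear of them, since Iigp1 overlapped both in 12-month controls and in 2-month controls, and Gbp3 overlapped Igtp in KO. Iigp1 and Gbp3 came next by mean, at 389 and 482 per kb in KO, where they overlapped, against 784 and 491 in 12-month control and 945 and 502 in 2-month control SVF, where they did not. Irgm2, Gbp7 and Irgm1 formed the middle, Irgm2 and Gbp7 overlapping in KO and in 12-month controls, at 93.2 to 198 per kb in KO, 131 to 264 in 12-month control and 149 to 269 in 2-month control SVF. Gbp6 was low, at 23.7, 44.4 and 58.2 in the same order of groups. Irgc1 stood at 117 per kb in KO, between Gbp7, whose range it overlapped, and Irgm1, whose range it did not, but lowest of all members in 12-month controls at 5.35 and second to Gvin1 from the bottom in 2-month controls at 2.14. Gvin1 was lowest in KO at 8.77 and in 2-month controls at 0.167, and stood at 28.2 in 12-month controls, overlapping Gbp6 there, all per kb.

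Of 28 further IRG, GBP, GVIN and Mx genes listed, 25 were in the tables and 21 were tested, of which 14 did not pass in KO, 7 were lower and 0 higher (10 lower and 0 higher at an unadjusted p under 0.05), beside 4.46% of all tested genes called lower. The median log2 fold change was -0.70, against -0.01 over all tested genes. The 7 lower calls became 2 without KO replicate 1, control replicate 1 or control replicate 3. With age 4 were lower and 1 higher, 5 of 21 beside the 22.7% of all tested genes, a share near the background, with a median of -0.41 against -0.01. The 4 lower calls became 7 when 12-month replicate 3 was dropped. They became 2 when any 2-month library but replicate 1 was dropped, and likewise for 12-month replicates 2 and 4. Among the IRGs, Tgtp1, an effector, had 79, 149, 92 and 168 normalized counts in KO against 377, 259, 616 and 357 in 12-month controls (-1.71, adjusted p = 0.00522), and the Iigp1 neighbours Gm4951 (-1.17, adjusted p = 0.0235) and F830016B08Rik (-2.59, adjusted p = 0.0191) were lower as well. The call of Tgtp1 was kept in all 17 alternatives. That of Gm4951 was lost without KO replicate 1 (adjusted p = 0.0627) or control replicate 4 (0.0530), and that of F830016B08Rik without control replicate 1 (0.0648) or 3 (0.0646). 9930111J21Rik2 (-1.42, adjusted p = 0.0778, but 0.0239 without KO replicate 4, its highest KO library) and Irgq (-0.39, adjusted p = 0.224) did not pass. Reads of such near-identical copies can be shared, and how reads with several matches were counted is not given in the sources used here.

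Among the other GBPs, Gbp9 (-0.63, adjusted p = 0.0236) and Gbp4 (-0.80, adjusted p = 0.0274) were lower in KO, and these 2 genes overlap on chromosome 5. Their calls were lost without KO replicate 1 or 2 or control replicate 1 or 3, and that of Gbp4 also without KO replicate 3, at adjusted p between 0.0516 and 0.0819. Gbp2b, next to Gbp2, had 62, 148, 115 and 74 in KO, 1484, 139, 1192 and 831 in 12-month control and 166, 207, 198 and 162 in 2-month control SVF. Older controls 1, 3 and 4 were far above all other libraries, and replicate 2 was below all young controls. Gbp2b was called lower in KO (-2.83, adjusted p = 0.0171) and was not called with age (1.88, adjusted p = 0.0883), but it was higher with age without 12-month replicate 2 (2.63, adjusted p = 1.13e-05). That fit leaves out the older library that went the other way, so no rise is read from it. The KO call was lost without KO replicate 1 (0.0514) or control replicate 1 (0.0558) or 3 (0.0533). Gbp5 (-0.37, adjusted p = 0.252) and Gbp8 (-0.33, adjusted p = 0.458) did not pass in KO. With age Gbp9 was lower (-0.62, adjusted p = 0.00353), and Gbp4 (-0.43, adjusted p = 0.0679) was not past the threshold, though without 12-month replicate 3 both Gbp4 (0.0117) and Gbp5 (0.0284) were. That library was the highest of its group for both, so leaving it out had to lower their 12-month means, and no fall is read from it.

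Mx2 belongs to the antiviral dynamin-like GTPases but is annotated as a polymorphic pseudogene. It was lower both in KO (-0.53, adjusted p = 0.0357) and at 12 months (-0.83, adjusted p = 0.00186). The KO call was lost in 8 of 17 alternatives, 6 of them leaving out a library (any but KO replicate 2 and control replicate 4, adjusted p between 0.0560 and 0.107), and the age call in none. Its relative Mx1 passed in neither comparison (KO 0.26, adjusted p = 0.501). The remaining age calls were in GVIN-type genes and pseudogenes near Gvin1, Gm1966 being the one that was higher.

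**Figure D3:**
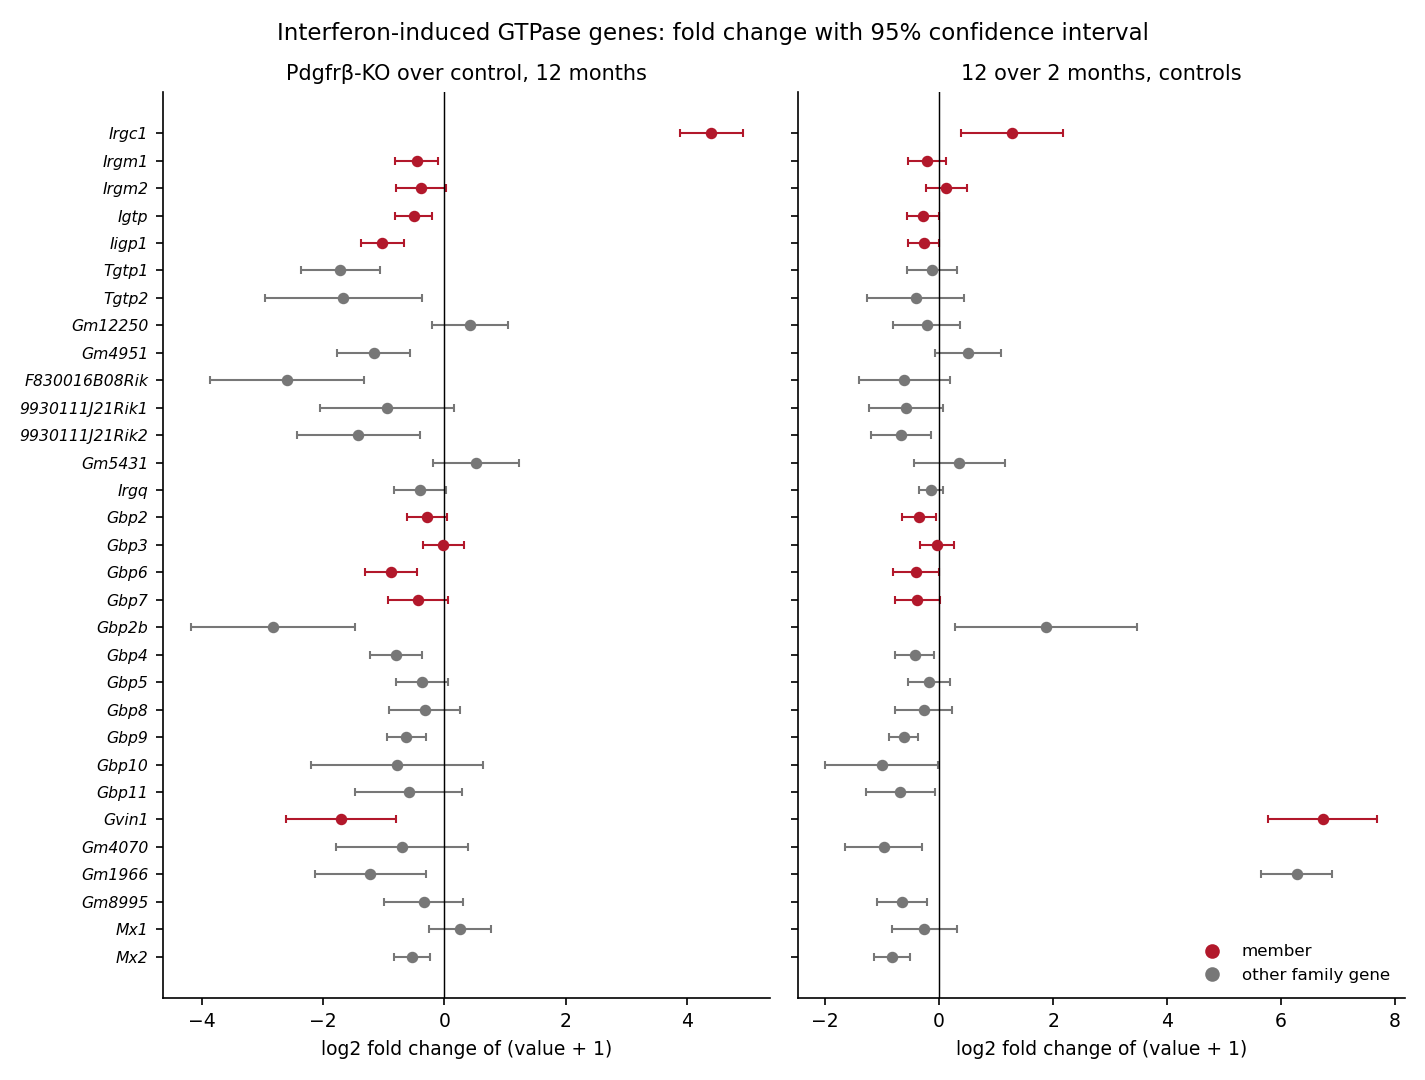
Log2 fold change with its 95% confidence interval of the 10 members (red) and 21 other family genes (grey), for Pdgfrβ-KO over 12-month control (left) and for 12 over 2 months (right), ordered by family. Irgc1 stands alone on the right of the KO panel at 4.40 while most other genes lie below 0, and in the age panel Gvin1 at 6.73 and Gm1966 at 6.27 stand apart.

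Gm1966, annotated as an unprocessed pseudogene of the GVIN type at chr7:106596743-106604035, was, like Gvin1, higher at 12 months. It had 198, 285, 737 and 682 normalized counts in KO, 1279, 527, 1278 and 974 in 12-month control and 16, 13, 10 and 8 in 2-month control SVF. The young libraries were far below all others, and KO overlapped the older controls (age 6.27 ± 0.28, adjusted p = 1.21e-07, KO -1.22, adjusted p = 0.0917). Gm18853, a pseudogene that lies inside Gvin1 without sharing an exon, had 6, 15, 12 and 9 in KO, 28, 10, 46 and 41 in 12-month control and 0 in every 2-month control library. Like Gvin1, it entered the age comparison only through the 12-month libraries, so its age call counted below is a description. By contrast the GVIN-type gene Gm4070 (-0.98, adjusted p = 0.0432) and the pseudogenes Gm8995 (-0.64, adjusted p = 0.0381) and Gm4759 (-1.62, adjusted p = 0.00454) were lower at 12 months. The largest fall with age within 1 Mb of Gvin1 was that of 9130208D14Rik, which averaged 34.8 in 12-month and 329 in 2-month controls (-3.32), a call kept in all 17 alternatives at an adjusted p of at most 0.00135. The calls of Gm8995 and Gm4070 were each lost in 10 of 17 alternatives, among them those that dropped any 2-month library but replicate 1, or 12-month replicate 2 or 4, at adjusted p between 0.0501 and 0.112. Within 1 Mb on either side of Gvin1, 23 other genes were tested with age, of which 2 were higher (Gm18853 and Gm1966) and 5 lower (Gm4070, Gm8995, Gm4759, 9130208D14Rik and the pseudogene Gm18852), and 22 were tested in KO, of which 0 were higher and 2 lower (Trim3 and Dchs1). The KO calls of Trim3 and Dchs1 were lost in 5 and 6 of 17 alternatives. Of all tested genes 22.7% were called with age (11.3% higher and 11.4% lower). In KO 9.42% were called (4.96% higher and 4.46% lower), and the 2 of 22 near Gvin1 are close to that share.

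**Figure D4:**
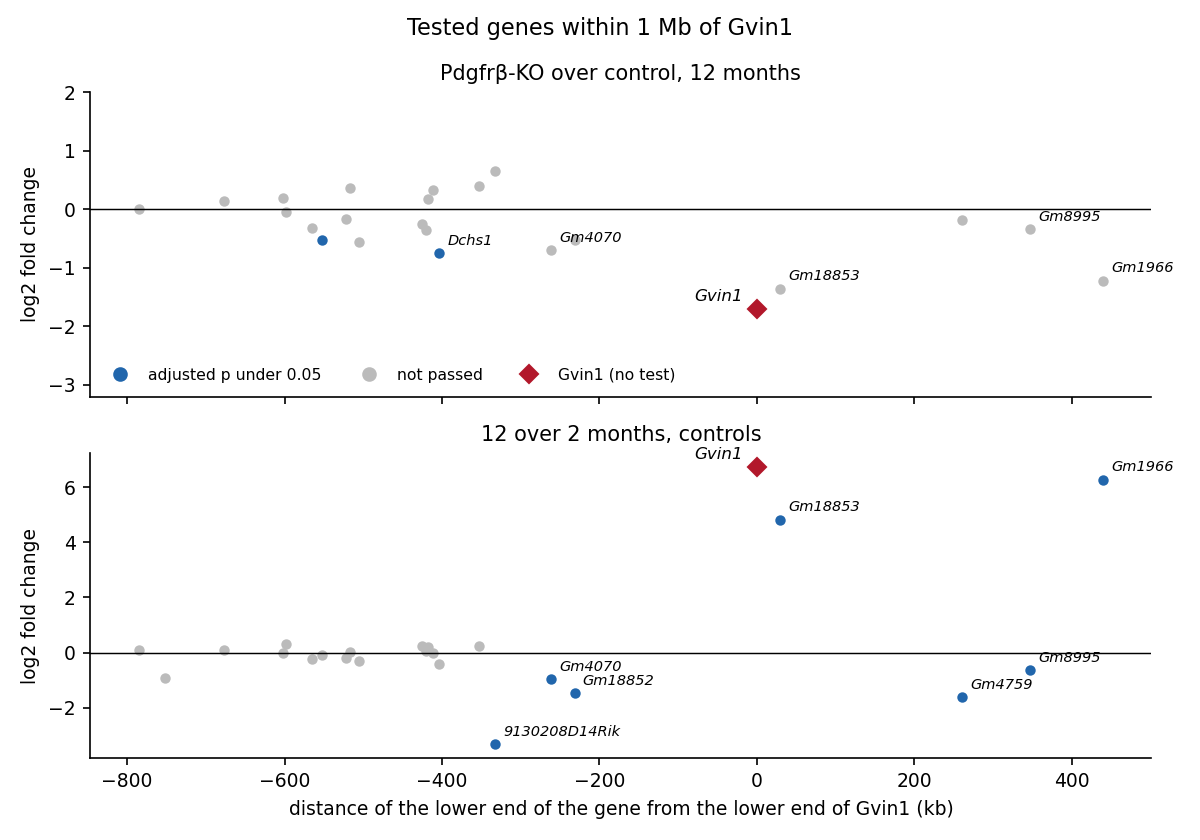
Log2 fold change of tested genes within 1 Mb of Gvin1 against the distance between the lower ends of the genes in kb, for Pdgfrβ-KO over 12-month control (top) and 12 over 2 months (bottom). With age Gvin1 (6.73), Gm18853 (4.82) and Gm1966 (6.27) lie far above 0 while 9130208D14Rik (-3.32), Gm4070, Gm18852, Gm4759 and Gm8995 between or beside them lie below it. Gvin1 and Gm18853 met the filter of the age comparison through the 12-month libraries alone.

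Near Irgc1, the tested neighbour on its left, Smg9, a factor of RNA decay, averaged 506 in KO and 722.5 in 12-month control SVF and was lower (-0.50), and Plaur, the urokinase receptor on its right, averaged 4179 in KO and 2609 in 12-month control SVF and was higher (0.67, adjusted p = 0.0326). Lypd5 had 3, 0, 0 and 0 in KO, 16, 41, 36 and 37 in 12-month control and 0, 2, 3 and 0 in 2-month control SVF. It exceeded 3 in older controls alone, a pattern unlike that of Irgc1 (KO -4.48). Lypd5 met the filter of both comparisons only through the 12-month controls, where it was high. Its fold changes depend on the 1 added before the logarithm, and its calls counted below are a description. Within 1 Mb on either side, 43 genes were tested in KO, with 5 higher (Zfp61, Plaur, Phldb3, Cd177 and Pou2f2) and 4 lower (Zfp112, Zfp235, Lypd5 and Smg9), and 43 with age, with 4 higher, Lypd5, Rabac1 and Pou2f2 among them, and 3 lower (Cadm4, Dedd2 and Erf). Over all tested genes 9.42% were called in KO (4.96% higher and 4.46% lower) and 22.7% with age (11.3% higher and 11.4% lower). The calls of Phldb3 and Zfp61 in KO were lost in 6 and 4 of 17 alternatives. The KO calls of Smg9 and Plaur were lost in 4 and 7 of 17 alternatives, all but 1 of them leaving out a library, with adjusted p of up to 0.0673 for Smg9 without control replicate 1 and 0.0967 for Plaur without control replicate 1. Near Iigp1, 24 genes were tested in KO, with 4 lower, Gm4951, F830016B08Rik, Slc6a7 and Pdgfrb itself, and 1 higher, Csf1r, a macrophage marker. These counts stand beside the same 4.46% lower and 4.96% higher of all tested genes. The genes lie near the floxed allele, so the limit on strain given for Iigp1 holds for them too.

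Upstream of the GTPases, Ifng, the ligand of the pathway, had 200, 184, 148 and 79 normalized counts in KO, 139, 144, 206 and 192 in 12-month control and 126, 119, 90 and 114 in 2-month control SVF. Older controls were above all young ones (0.59, adjusted p = 0.0289) while KO overlapped both (-0.22, adjusted p = 0.650). The age call was lost in 7 of 17 alternatives, 5 of them dropping a library (any 2-month library but replicate 1, or 12-month replicate 3 or 4), at adjusted p between 0.0506 and 0.0875. The receptor chains Ifngr1 (KO -0.09, adjusted p = 0.694) and Ifngr2 (KO 0.08, adjusted p = 0.729) did not pass in KO, nor with age (0.20 and -0.00). Of 12 signalling genes tested, 1 was lower in KO, Irf1, and 0 were higher (1 higher at an unadjusted p under 0.05). Of all tested genes 4.46% were called lower and 4.96% higher in KO.

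Irf1, the factor that acts at ISREs, had 10534, 12053, 9274 and 8512 in KO, against 14766, 13848, 14768 and 14711 in 12-month control SVF. No KO library reached a control, and Irf1 was lower, with a log2 fold change of -0.54 ± 0.13 (SE, adjusted p = 0.0236). Without KO replicate 3 or control replicate 1, 3 or 4 the adjusted p was 0.0580, 0.0660, 0.0667 and 0.0521. With age Ciita, which turns on MHC class II genes, was higher (0.68, adjusted p = 0.0173) and Jak2 lower (-0.46, adjusted p = 0.00687), the call of Ciita being lost without 12-month replicate 4 (0.0542) or 2-month replicate 3 (0.0543), and Irf1 (-0.18, adjusted p = 0.146) and Jak1 (-0.30, adjusted p = 0.0825) did not pass.

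Of 14 other interferon gamma targets tested, 1 was lower in KO, the chemokine Cxcl9 (525, 457, 333 and 442 in KO against 855, 1028, 1441 and 878 in 12-month controls, -1.24, adjusted p = 0.00242), and 0 were higher (3 at an unadjusted p under 0.05). The antigen-presentation genes B2m (-0.13, adjusted p = 0.517) and Tapbp (0.24, adjusted p = 0.170) did not pass in KO. With age 2 were higher, Psmb10 (0.37, adjusted p = 0.0209) and Tapbp (0.26, adjusted p = 0.0392), and 0 lower (0 at an unadjusted p under 0.05). These 2 calls were lost in 5 and 11 of 17 alternatives, and the count lay between 0 and 4 when single libraries were left out, 4 with 2-month replicate 1 dropped and 0 with 2-month replicate 2 or 3, or 12-month replicate 1, dropped. Median log2 fold changes of the list were 0.02 for KO and 0.13 for age. Of all tested genes 4.46% were called lower in KO and 11.3% higher with age. The 1 lower call in KO and the 2 higher calls with age are near these shares.

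Of 23 type I interferon targets tested, 17 did not pass in KO, 6 were higher and 0 lower (9 higher and 0 lower at an unadjusted p under 0.05). Of all tested genes 4.96% were called higher and 4.46% lower in KO. The median of the list was 0.21, and the count of higher calls was between 4 and 6 when single libraries were left out. The higher calls included Dhx58, an RNA-sensor regulator, with 574, 501, 547 and 523 in KO against 340, 296, 314 and 292 in 12-month controls (0.79, adjusted p = 0.00163). The oligoadenylate synthetase genes Oas1a (0.93, adjusted p = 0.00185), Oas2 (0.91, adjusted p = 0.00205) and Oasl1 (0.88, adjusted p = 0.00325) were also higher, these 4 in all 17 alternatives, and the abundant targets Bst2 and Ifi27 (0.21 and 0.24, adjusted p = 0.518 and 0.344) did not pass. With age 5 were lower, Ifi44 (-1.14), Oasl1 (-0.64), Oas2 (-0.60), Isg15 (-0.54) and Eif2ak2 (-0.34), and 0 higher (1 at an unadjusted p under 0.05), with a median of -0.18. Of all tested genes 11.4% were called lower and 11.3% higher with age. The call of Eif2ak2 was lost in 11 of 17 alternatives, and the lower count was 8 when 12-month replicate 3 was dropped, but 3 when the library dropped was 2-month replicate 2 or 4 or older replicate 1 or 2. Of 8 type I signalling genes tested, 0 passed in KO (2 higher at an unadjusted p under 0.05), and 1, Stat2, was lower with age (-0.39, adjusted p = 0.0235), a call lost in 7 of 17 alternatives. That 1 of 8 is near the 11.4% of all tested genes. The difference between the lists was not itself tested.

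**Figure D5:**
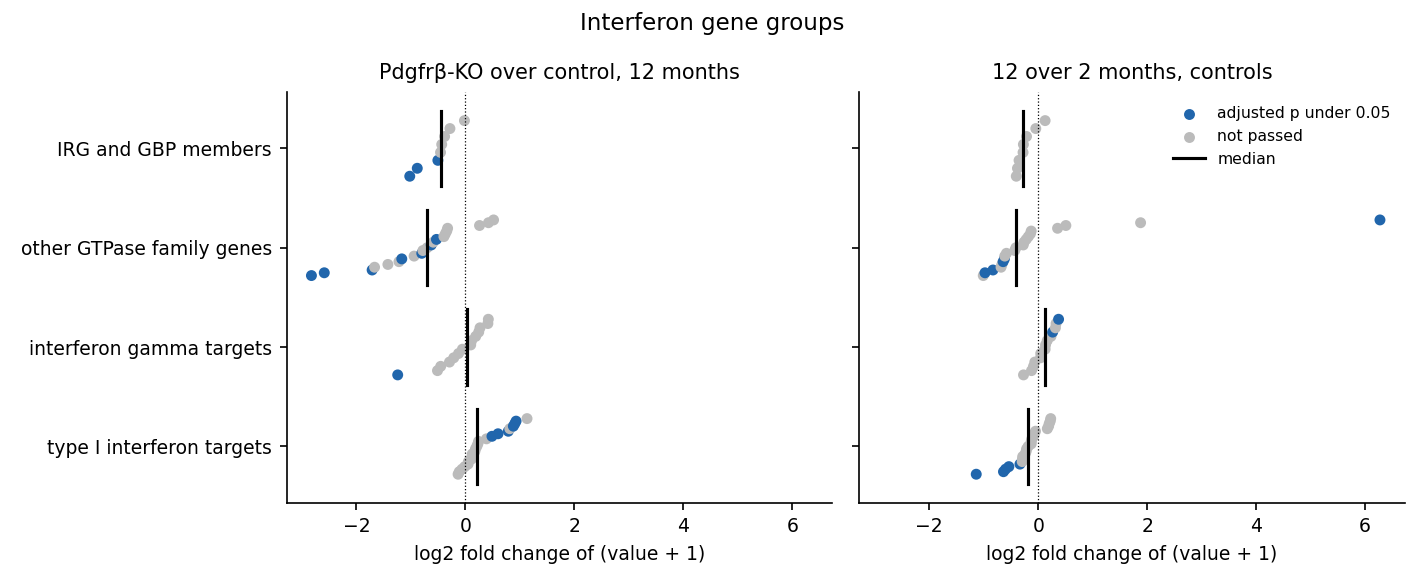
Log2 fold change of each tested gene in 4 groups (points, blue where the adjusted p was under 0.05) with the median (line), for Pdgfrβ-KO over 12-month control (left) and 12 over 2 months (right); Irgc1 and Gvin1 are left out. In KO the other GTPase family genes have a median of -0.70 and the type I interferon targets one of 0.21.

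Across the 12 libraries, the profiles of the members were compared with those of 16265 genes by Pearson's r of log2 values, as a description in which the points share groups and libraries. Gvin1 was closest to Klrb1c (r = 0.98), an NK cell receptor, then to Gm1966 (0.98), Gm18853 (0.97), the ribosomal protein gene Rpl29 (0.96) and Klra8 (0.95), another NK cell receptor. Klra8 averaged 50.8 in KO, 65.0 in 12-month control and 0 in 2-month control SVF, and Klrb1c 31.5, 46.2 and 10.5. The limit on strain given for Gvin1 holds for these genes as well. Among the 5 genes closest to Irgc1 were Gm45104 (0.98), Chid1 (0.98), Atp13a2 (0.98) and Htr1b (0.97), and Gm45104 on chromosome 7 averaged 103, 2.25 and 0 in the same order of groups. For Igtp the closest were Zfp473 (0.93), Ngef (0.93), Irgm1 (0.93), Irf1 (0.92) and Gbp6 (0.91). Within the set Irgm1 and Gbp6 were the most alike (0.95), Iigp1 was close to Igtp (0.91), Gbp3 was at 0.53 or less with every other member, and Irgc1 was opposite to Iigp1 (-0.91).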

How the data were processed

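Libraries of polyA RNA were strand-specific. Per the labels and the study's methods, the authors trimmed reads with Trim Galore 0.6.0, aligned them to GRCm 38 with STAR 2.7.0e and normalized gene counts by DESeq2 1.26.0 size factors. The deposited values are treated as a score, normalized counts rounded to whole numbers, and not as raw counts. They came in 2 tables of 8 libraries, and the 12-month controls had equal values in both (100% of genes). Labels call the libraries biological replicates. All 8 value columns of each table were used. The unit differs from raw counts, so log2(value + 1) was fitted with limma 3.58.1 in R 4.3.3 (trend and robust variance, two-sided), 1 fit per comparison, for genes with at least 10 in at least 4 of 8 libraries, and p was adjusted by Benjamini-Hochberg over all tested genes (threshold 0.05). In simulated data, a true 1.5-fold change was recovered for 28 of 67 genes in the KO and 35 in the age comparison, a 2-fold change for 55 and 57 of 67, and a 4-fold change for 63 and 66 of 66. Raw depth is unknown from these values, so no counting interval is given. Members and lists were chosen with earlier results of these data known. Named from each list were up to 4 genes past the threshold with the smallest p, up to 2 of the highest mean that did not pass, the genes of any count of 5 or fewer near the members, fixed pathway genes, the 5 closest profiles and near neighbours. Alternatives were the pseudocount (0.5 and 5), the filter, median-ratio and quantile rescaling, a fit without trend, a fit over 12 libraries, a replicate block and leaving out each library. Of the gene symbols, 27 had been turned into dates in the tables. Some genes that the rule for names covers are not reported here.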

Additional observations from a re-analysis of the deposited data

Results flagged for a closer look

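In groups of 4 libraries, a library was singled out when its gap to the nearest of the others was, as a share of the range of the group, above Dixon's 95% critical value. This held in 8 of the 182 groups examined, and chance alone gives about 1 in 20. Among the members, Irgm2 had 582 normalized counts in Pdgfrβ-KO replicate 1, against 771 to 791 in the other KO libraries, and Gbp7 had 1623 in 2-month control replicate 4, against 1462 to 1485 in the others. Among upstream genes, Irf1 had 13848 in 12-month control replicate 2, below 14711 to 14768, and Jak1 had 8644 in the same library and 11401 in 2-month control replicate 1, each the lowest of its group. Tapbp had 6657 in 12-month control replicate 2, the highest of its group. Eif2ak2 had 743 in 12-month control replicate 3 and 865 in 2-month control replicate 2, again the highest values of those groups.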

How the results depend on the processing

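No value changed its direction past the threshold. Of all genes tested with age, 3727 were called, and 2356 to 3961 when 1 library was left out (2356 without 2-month replicate 4, 2454 without replicate 3). For KO the count was 1539, and 2542 in 1 fit over 12 libraries, 2380 with the replicate block and 859 to 1878 with a library left out, below 900 without KO replicate 1 or control replicate 1, 2 or 3. Of the other GTPase family genes, 4 were lower with age, and 2 without a filter, without trend and in the fit over 12 libraries, with 2 to 7 when a library was left out. The 1 higher became 2 without a filter and in the fit over 12 libraries, and was 1 to 2 with a library left out. The 7 lower in KO became 4 without trend and 2 to 8 with a library left out. With a pseudocount of 5 the log2 fold change of Gvin1 with age was 5.22, and that of Irgc1 in KO 4.08. In the age comparison Gvin1 missed the filter without any 12-month library, and Irgc1 in 5 of 17 alternatives, and these could not be fitted.

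Replicate numbers are shared by the labels, and the main fits treated the libraries as unpaired. Deviations from group means of same-numbered libraries correlated at 0.16, -0.22, -0.05 and -0.18 with age and -0.02, 0.38, 0.23 and -0.00 in KO. Not every library correlated best with its own number. KO replicates 2 and 3 did and 1 and 4 did not, and the replicate block raised the KO calls from 1539 to 2380. Whether the KO and control libraries were paired by number is not settled by these values. With the block the calls of Igtp, Gbp6 and Iigp1 in KO were kept, and that of Gbp2b was lost (adjusted p = 0.0694). The causes of these shifts were not tested. Raw depth is unknown, so the precision of low values such as Gvin1 in young libraries cannot be given.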
